A study of Saccharomyces cerevisiae with 24 samples.

Results

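ICL1, MLS1, CIT2, IDP2, ICL2 and AGX1 are yeast genes of the glyoxylate cycle and of reactions beside it. They were chosen by gene symbol, are each measured by 1 probe set that no other gene shares, and make up 6 of the 5449 genes of the array. The glyoxylate cycle lets yeast build sugars and amino acids from acetyl units: isocitrate lyase splits isocitrate, malate synthase joins the glyoxylate formed to a further acetyl unit, and the decarboxylating steps of the citric acid cycle are bypassed. The cycle is repressed when glucose is plentiful. Its genes are known targets, through the activators Cat8 and Sip4, of Snf1, the kinase that corresponds to mammalian AMPK. Each Snf1 complex holds 1 of 3 alternative β-subunits, Sip1, Sip2 or Gal83.

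Messenger RNA was measured on 24 Affymetrix arrays of Saccharomyces cerevisiae, 3 biological replicates for each of 8 strains. The strains were a reference labelled wild type, the single deletions sip1Δ, sip2Δ and gal83Δ, the double deletions sip1Δ sip2Δ, sip1Δ gal83Δ and sip2Δ gal83Δ, and the triple deletion sip1Δ sip2Δ gal83Δ, called here sip1, sip2, gal83 and so on, and triple. Every strain was grown aerobically to steady state in a 1 L bioreactor limited by glucose, with 10 g/L glucose in the medium, a dilution rate of 0.1 per h, 30 °C and pH 5.0. The strain background, the number of clones per strain and how the deletions were made are not given in the sources used here. Values are deposited log2 intensities. Changes are log2 differences with their standard error (n = 3 arrays in each strain) from 1 limma model of the whole array set. A gene counts as called where its p, adjusted over all genes by Benjamini-Hochberg, was under 0.05.

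The probe sets of the deleted genes went against the label on 2 arrays. GAL83 read 9.72 on the array labelled sip1 gal83 replicate 2, against 2.07 on that strain's other arrays and a reference mean of 11.28. On the same array SIP2, which this strain keeps, read 8.48 against 9.69 and 9.71 on the strain's other arrays, while SIP1 read 2.03. SIP2 read 6.0 on the array labelled sip1 sip2 replicate 3, beside a reference mean of 10.64. The array labelled sip2 gal83 replicate 1 matched its label but stood farthest from its strain's mean over all genes, with an SD of 0.294 over genes against 0.0858 to 0.179 on the other arrays. The 3 arrays of sip2 gal83 also had a lower floor, with a lowest value of 1.66 to 1.67 against 1.78 to 1.79 elsewhere, and correlated less with each other (lowest r 0.988 against 0.995 or more). The part of this in the sip2 gal83 comparisons was not tested. Array medians lay between 10.90 and 11.07. The median change of all genes from the reference was -0.09 in sip1, -0.12 in sip2 and -0.10 in gal83, so small changes in these strains are also given relative to it.

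ICL1, MLS1 and IDP2 were lower on every array of the strains without GAL83 than on every array of the strains with it, the array labelled sip1 gal83 replicate 2 included. They were lowest where SIP1 and SIP2 were deleted too. In the triple strain ICL1 stood at 4.25% of its reference level and MLS1 at 1.44%. CIT2, ICL2 and AGX1 stayed within 1 log2 unit of the reference on all arrays, and each had its own order of strains.

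ICL1 (YER065C) encodes isocitrate lyase, the first enzyme particular to the cycle. Its log2 intensity was 12.91, 12.91 and 12.94 on the reference arrays, and 10.47, 10.25 and 10.53 on the gal83 arrays. It was 9.33, 9.40 and 9.79 in sip2 gal83, and 8.36, 8.52 and 8.22 in the triple strain. These 4 strains formed separate steps with no overlap between neighbours. The sip1 gal83 arrays gave 10.00, 12.58 and 9.76. The second of these, the array labelled sip1 gal83 replicate 2, lay nearer to the reference than to the strain's other arrays. With GAL83 present, values were 13.26, 12.95 and 13.28 in sip1, 13.18, 13.14 and 13.10 in sip2, and 13.49, 13.67 and 13.19 in sip1 sip2. All of these were above every reference array.

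MLS1 (YNL117W) encodes malate synthase, which condenses glyoxylate with acetyl-CoA. It read 13.02, 13.02 and 12.91 in the reference and 9.25, 9.66 and 9.98 in gal83. It read 8.41, 8.19 and 9.32 in sip2 gal83, and 7.16, 6.55 and 6.89 in the triple strain. The triple arrays lay below all others, while 1 sip2 gal83 array reached into the gal83 range. The sip1 gal83 arrays read 9.24, 12.27 and 9.04, with replicate 2 again close to the strains that kept GAL83. The sip1, sip2 and sip1 sip2 arrays lay between 12.48 and 13.44.

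IDP2 (YLR174W) encodes the cytosolic NADP-dependent isocitrate dehydrogenase, which draws on the same isocitrate. Its log2 intensity was 13.61, 13.63 and 13.69 in the reference, 12.87, 12.92 and 13.01 in gal83, and 12.93, 12.75 and 12.97 in sip2 gal83. It was 12.83, 13.35 and 12.76 in sip1 gal83, and 12.44, 12.36 and 12.31 in the triple strain. The gal83, sip2 gal83 and sip1 gal83 strains overlapped, and the triple arrays lay below them. The sip1, sip2 and sip1 sip2 arrays lay between 13.55 and 13.88. The sip2 and sip1 sip2 arrays overlapped the reference, and the sip1 arrays, at 13.82, 13.75 and 13.75, lay just above it.

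**Figure D1:**
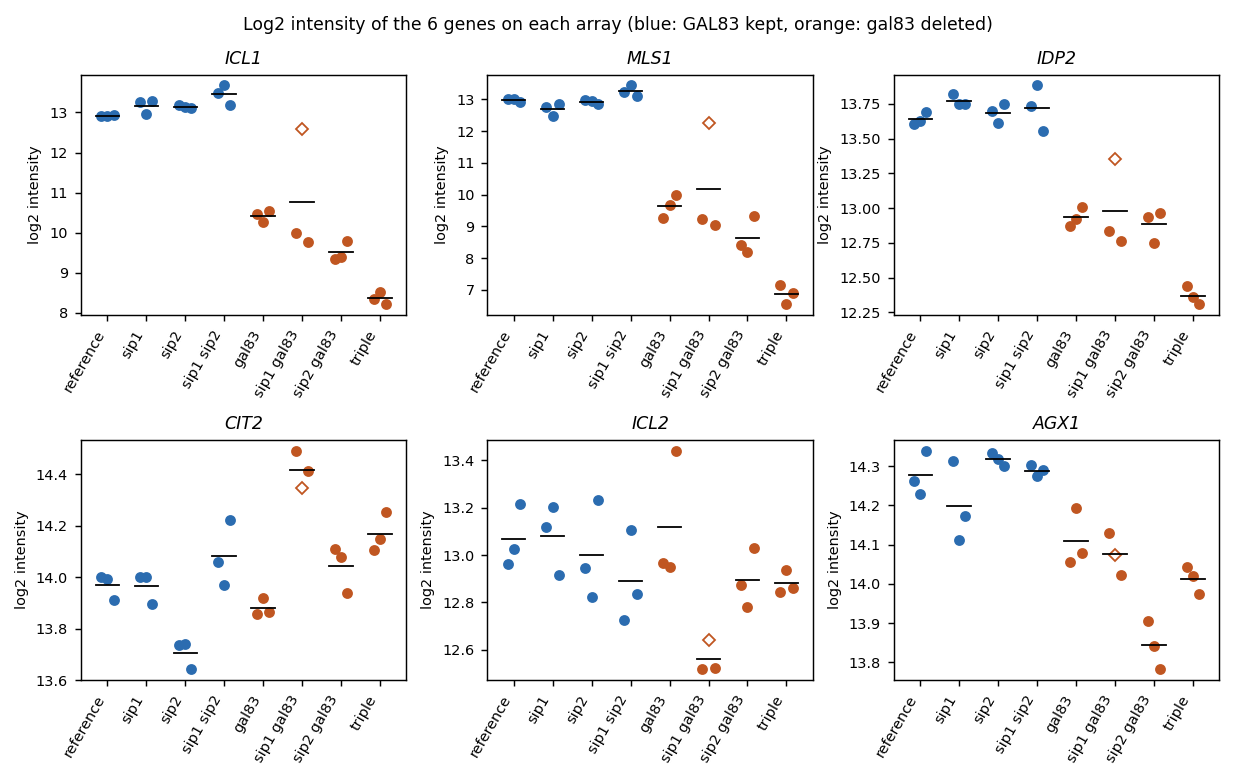
Log2 intensity (y axis) of the 6 genes on each array, by strain (x axis), with points for arrays and a line for each strain's mean over 3 arrays. Blue strains keep GAL83, orange strains lack it, and the open diamond is the array labelled sip1 gal83 replicate 2, which lies at 12.58 for ICL1 where the strain's other arrays lie at 10.00 and 9.76.

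Against the reference, the single deletions of SIP1 and SIP2 gave no call among the cycle genes apart from CIT2 in sip2. In sip1, 0 of the 6 genes were called (limma, 39.4% of all genes called), with ICL1 at 0.24 ± 0.45, MLS1 at -0.28 ± 0.55 and IDP2 at 0.13 ± 0.11. The 95% interval for ICL1 ran from -0.71 to 1.19, or from -0.041 to 0.52 without the array labelled sip1 gal83 replicate 2, which is in neither strain but enters the common spread. At an unadjusted p under 0.05 the count was also 0, since the lowest p of the 6 was 0.132, for AGX1. Without sip1 replicate 1, AGX1 was at -0.13 and was called (adjusted p = 0.0347). With the sip1 and reference arrays fitted alone, IDP2 was called higher (adjusted p = 0.0447). In sip2, CIT2 was the 1 gene called (40.7% of all genes), though not with median centring, which gave AGX1 as called higher instead (0.18, adjusted p = 0.0131). ICL1 was at 0.22 ± 0.45 in sip2 (adjusted p = 0.744), and was called with these groups fitted alone (adjusted p = 0.00519). In sip1 sip2, 0 of 6 were called (0.257% of all genes), and the lowest unadjusted p was 0.0791, for CIT2. ICL1 was 0.53 ± 0.45 above the reference in sip1 sip2 (adjusted p = 0.825). Without sip1 gal83 replicate 2, sip1 sip2 replicate 3 and sip2 gal83 replicate 1, the 3 doubted arrays, left out after their values were known, it was 0.66 ± 0.13 above and was called (adjusted p = 0.0340).

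Deleting GAL83 alone lowered 4 of the 6 genes (41.2% of all genes called). MLS1 fell by 3.35 ± 0.55 to 9.79% of its reference level (adjusted p = 0.000172). ICL1 fell by 2.50 ± 0.45 to 17.6% (adjusted p = 0.000373), and IDP2 fell by 0.71 ± 0.11 to 61.2% (adjusted p = 0.000121). AGX1 fell by 0.17 ± 0.05 (adjusted p = 0.0112), which is -0.07 relative to the median of all genes, and was not called without reference replicate 3 or gal83 replicate 1, nor with these groups fitted alone (adjusted p = 0.0590, 0.0538 and 0.0548). Set against the mean of the sip1 and sip2 strains, a comparison that leaves the reference arrays out, the gal83 strain had 3 of the 6 called (3.74% of all genes). These were ICL1, which fell by 2.73 ± 0.39 (adjusted p = 0.000267), MLS1, which fell by 3.19 ± 0.48 (adjusted p = 0.000447), and IDP2, which fell by 0.79 ± 0.10 (adjusted p = 5.77e-05).

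In sip1 gal83 all 6 genes were called (10.9% of all genes), 5 lower and CIT2 higher. MLS1 fell by 2.80 ± 0.55 and ICL1 fell by 2.15 ± 0.45. Without the array labelled sip1 gal83 replicate 2 the values were -3.85 ± 0.26 and -3.05 ± 0.15, and all 6 genes were called. Fitted on the reference and sip1 gal83 arrays alone, with that array kept, ICL1, MLS1 and IDP2 were not called (adjusted p = 0.144, 0.114 and 0.0675). In sip2 gal83, 4 of 6 were called lower (37.3% of all genes): MLS1 fell by 4.34 ± 0.55, ICL1 fell by 3.41 ± 0.45, IDP2 fell by 0.76 ± 0.11 and AGX1 fell by 0.43 ± 0.05. In the triple strain 5 of 6 were called (38.4% of all genes). MLS1 fell by 6.12 ± 0.55 (adjusted p = 2.30e-07), ICL1 fell by 4.56 ± 0.45 (adjusted p = 7.27e-07) and IDP2 fell by 1.27 ± 0.11 (adjusted p = 1.86e-07). These comparisons share the reference arrays.

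**Figure D2:**
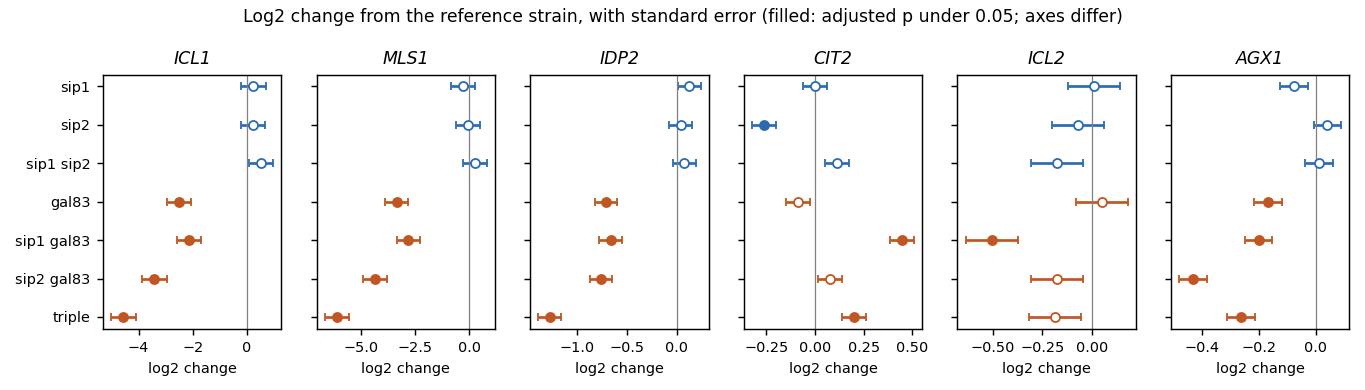
Log2 change from the reference (x axis, a separate scale for each gene) in the 7 deletion strains (y axis), with bars for the standard error and filled points for an adjusted p under 0.05. ICL1, MLS1 and IDP2 are filled in the 4 orange strains, which lack GAL83, and open in the 3 blue strains, while CIT2 is higher in sip1 gal83 and triple and lower in sip2.

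The effect of GAL83 can be read in 4 backgrounds, each against the strain that by its label differs only in GAL83. The change in ICL1 was -2.50 ± 0.45 from the reference to gal83, -3.63 ± 0.45 from sip2 to sip2 gal83, and -5.08 ± 0.45 from sip1 sip2 to triple. For MLS1 it was -3.35 ± 0.55, -4.29 ± 0.55 and -6.40 ± 0.55 in the same order. Without the 3 doubted arrays, the change from sip2 to sip2 gal83 was -3.55 ± 0.13 for ICL1 and -4.18 ± 0.27 for MLS1. That from sip1 sip2 to triple was then -5.22 ± 0.13 and -6.47 ± 0.27. From sip1 to sip1 gal83 the change was -2.39 ± 0.45 for ICL1 and -2.52 ± 0.55 for MLS1, or -3.29 ± 0.15 and -3.56 ± 0.26 without the array labelled sip1 gal83 replicate 2. Fitted on these groups alone with the array kept, neither was called (adjusted p = 0.0738 and 0.0931). The change in IDP2 was -0.71, -0.79, -0.80 and -1.35 in the reference, sip1, sip2 and sip1 sip2 backgrounds, each with a standard error of 0.11. The members called numbered 5 from sip1 to sip1 gal83 (37% of all genes), 5 from sip2 to sip2 gal83 (37.2%) and 4 from sip1 sip2 to triple (32.1%).

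**Figure D3:**
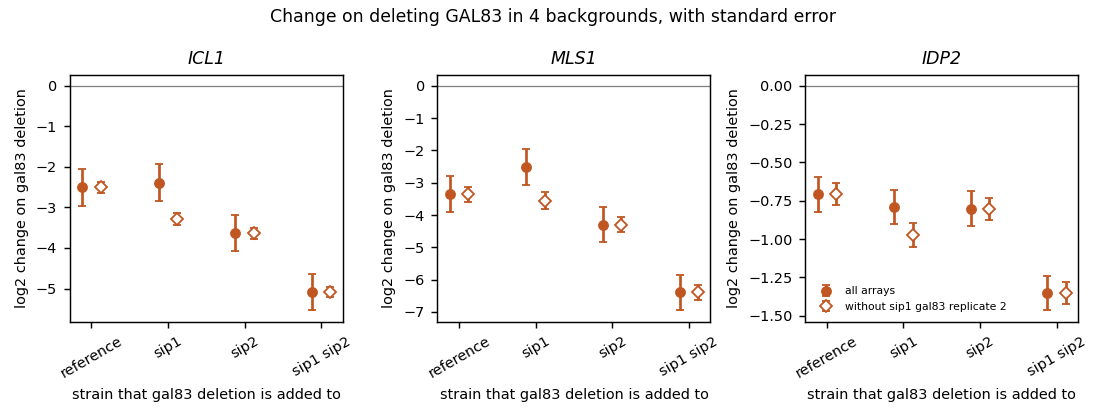
Log2 change on deleting GAL83 (y axis) in each of the 4 backgrounds (x axis) for ICL1, MLS1 and IDP2, with bars for the standard error. Filled points use all arrays and open diamonds leave out the array labelled sip1 gal83 replicate 2. The sip1 sip2 background has the lowest point in each panel, at -5.08 for ICL1, -6.40 for MLS1 and -1.35 for IDP2.

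Averaged over the 4 backgrounds, GAL83 deletion changed 5 of the 6 genes (39.3% of all genes called). MLS1 fell by 4.14 ± 0.28 and ICL1 fell by 3.40 ± 0.23 (adjusted p = 6.07e-09 for both). These falls ranked 2 and 3 among the 5449 genes, behind that of GAL83 itself, the deleted gene, and that of IDP2, 0.91 ± 0.06, ranked 51. AGX1 fell by 0.26 ± 0.02, CIT2 rose by 0.20 ± 0.03, and ICL2 stood at -0.15 ± 0.07 (adjusted p = 0.0905, or 0.0164 without gal83 replicate 3). By background, CIT2 was called higher from sip1 to sip1 gal83 and from sip2 to sip2 gal83. With all arrays it was not called from the reference to gal83 or from sip1 sip2 to triple. Without the array labelled sip1 gal83 replicate 2 the same count was 5 (37.7% of all genes), with MLS1 at -4.40 ± 0.12 and ICL1 at -3.63 ± 0.07.

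For ICL1, MLS1 and IDP2 the averages for the other subunit genes were nearer to 0, and which of them were called depended on that array. The average effect of SIP1 deletion reached a call in 1 of 6 genes, CIT2, which rose by 0.26 ± 0.03 (25% of all genes called). Without the array labelled sip1 gal83 replicate 2, 4 of 6 were called (23.4% of all genes), since MLS1 at -0.56 ± 0.12, ICL1 at -0.28 ± 0.07 and IDP2 at -0.12 ± 0.04 then passed (adjusted p = 0.00374, 0.00759 and 0.0249). The average effect of SIP2 deletion reached a call in ICL1, at -0.70 ± 0.23 (adjusted p = 0.0475), and MLS1, at -0.95 ± 0.28 (adjusted p = 0.0307), 2 of 6 genes (13.4% of all genes). Without the array, 3 of 6 were called (10.8% of all genes), with ICL1 at -0.48 ± 0.07, MLS1 at -0.69 ± 0.12 and IDP2 at -0.12 ± 0.04. The ICL1 call with all arrays was lost in 22 of 32 other settings, with adjusted p from 0.000366 to 0.0829 over all of them. That of MLS1 was lost without gal83 replicate 3, sip1 sip2 replicate 3 or triple replicate 2 (adjusted p = 0.0501, 0.0539 and 0.0556).

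Among the strains that lack GAL83, ICL1, MLS1 and IDP2 were lower again when SIP1 and SIP2 were both deleted. From gal83 to triple, a comparison added after the values were seen, 4 of 6 genes were called (42.2% of all genes). MLS1 changed by -2.77 ± 0.55 (adjusted p = 0.000651), ICL1 by -2.05 ± 0.45 (adjusted p = 0.00144) and IDP2 by -0.57 ± 0.11 (adjusted p = 0.000638), while CIT2 rose by 0.29 ± 0.06 (adjusted p = 0.00110). Neither strain of this comparison holds an array that went against its label.

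The single steps between these strains were less certain. Adding the sip1 deletion to gal83 gave 2 called genes (35.9% of all genes), CIT2 and ICL2, with ICL1 at 0.36 ± 0.45. Without the array labelled sip1 gal83 replicate 2, ICL1 was at -0.54 ± 0.15 and was called lower (adjusted p = 0.0119), while MLS1 was at -0.49 ± 0.26 (adjusted p = 0.171). Adding the sip2 deletion to gal83 gave 1 called gene, AGX1 (30% of all genes), which was lost with these groups fitted alone (adjusted p = 0.0686), with ICL1 at -0.91 ± 0.45 (adjusted p = 0.139) and MLS1 at -0.99 ± 0.55 (adjusted p = 0.190). Without the array, which is in neither strain but enters the common spread, the same ICL1 and MLS1 values were called (adjusted p = 0.000175 and 0.00531).

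The strain that keeps SIP1 as its only β-subunit gene, sip2 gal83, was set against the strain that keeps SIP2, sip1 gal83. The 2 genes called were CIT2 and AGX1 (12.5% of all genes), both lower in sip2 gal83. With these groups fitted alone neither was called (adjusted p = 0.181 and 0.198). ICL1 was at -1.27 ± 0.45 (adjusted p = 0.0686) and MLS1 at -1.54 ± 0.55 (adjusted p = 0.0695). Without the array labelled sip1 gal83 replicate 2 these values were -0.37 ± 0.15 and -0.50 ± 0.26, and neither was called (adjusted p = 0.150 and 0.256).

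Losing SIP2 as the last β-subunit gene, from sip1 gal83 to triple, lowered 4 of 6 genes (13.2% of all genes). MLS1 was at -3.32 ± 0.55 and ICL1 at -2.41 ± 0.45, or at -2.27 ± 0.26 and -1.51 ± 0.15 without the array labelled sip1 gal83 replicate 2. IDP2 was at -0.61 ± 0.11, or -0.43 ± 0.08 without the array. Fitted on these groups alone with the array kept, the 3 genes were not called (adjusted p from 0.0585 to 0.0892). CIT2 fell by 0.25 ± 0.06 (adjusted p = 0.0132), a call lost with median centring and without sip1 gal83 replicate 1, triple replicate 1 or triple replicate 2 (adjusted p from 0.0504 to 0.0749). Losing SIP1 as the last, from sip2 gal83 to triple, gave 3 called genes (14.5% of all genes). MLS1 fell by 1.78 ± 0.55 (adjusted p = 0.0387), IDP2 fell by 0.51 ± 0.11 (adjusted p = 0.00480), and AGX1 rose by 0.17 ± 0.05 (adjusted p = 0.0250). The MLS1 call was lost without sip2 gal83 replicate 1 or 3 or any 1 triple array, and with these groups fitted alone (adjusted p from 0.0552 to 0.130). That of AGX1 was lost without sip2 gal83 replicate 3 or triple replicate 1 or 2, with quantile normalization and with these groups fitted alone (adjusted p from 0.0782 to 0.123). ICL1 was at -1.14 ± 0.45 there and was not called (adjusted p = 0.101), but with the array left out of the common spread it was (adjusted p = 2.50e-05).

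CIT2 (YCR005C) encodes the peroxisomal citrate synthase, which supplies the cycle with citrate and is the classic target of the retrograde pathway from mitochondria to nucleus. Its order of strains was unlike that of ICL1, with sip1 gal83 at the top and sip2 at the bottom. It read 14.00, 13.99 and 13.91 in the reference and 14.49, 14.35 and 14.41 in sip1 gal83. It read 14.11, 14.15 and 14.25 in the triple strain and 13.74, 13.74 and 13.64 in sip2. The sip1 gal83 arrays were above all others, that labelled replicate 2 included, and the sip2 arrays were below all others. The other strains lay between 13.86 and 14.22 and overlapped the reference or its neighbours.

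CIT2 rose by 0.45 ± 0.06 in sip1 gal83 (adjusted p = 0.000299) and by 0.20 ± 0.06 in the triple strain (adjusted p = 0.0157). The second call was lost without reference replicate 3 or triple replicate 3 (adjusted p = 0.0675 and 0.0829). In sip2 it fell by 0.26 ± 0.06 (adjusted p = 0.00251), of which -0.14 remained relative to the median of all genes, and with each array centred on its median it was not called (adjusted p = 0.144). In gal83 alone CIT2 was at -0.09 ± 0.06 and was not called (adjusted p = 0.273), and its sign turned, to 0.03, with median centring. The sip1 deletion added to gal83 raised CIT2 by 0.54 ± 0.06 (adjusted p = 9.10e-06), and the gal83 deletion raised it by 0.45 ± 0.06 when added to sip1 (adjusted p = 3.51e-05) and by 0.34 ± 0.06 when added to sip2 (adjusted p = 0.000426). Against the reference, CIT2 in sip2 gal83 was at 0.07 ± 0.06 and was not called (adjusted p = 0.354). From sip1 sip2 to triple, CIT2 was at 0.09 ± 0.06 and was not called (adjusted p = 0.309). Without the 3 doubted arrays that step was at 0.15 ± 0.06 and was called (adjusted p = 0.0393).

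ICL2 (YPR006C) is the paralog of ICL1 and encodes a mitochondrial 2-methylisocitrate lyase, which acts in the breakdown of propionate. It read 12.96, 13.03 and 13.22 in the reference and 12.52, 12.64 and 12.53 in sip1 gal83. All sip1 gal83 arrays were below every other array. It fell by 0.51 ± 0.13 in sip1 gal83 (adjusted p = 0.0200), but the call was lost when reference replicate 3, sip1 gal83 replicate 1 or sip1 gal83 replicate 3 was left out (adjusted p = 0.0935, 0.0623 and 0.0810). In the other strains ICL2 ranged from 12.73 to 13.44 and was not called against the reference.

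AGX1 (YFL030W) encodes the alanine:glyoxylate aminotransferase, which turns glyoxylate into glycine. Its values were 14.26, 14.23 and 14.34 in the reference and 13.91, 13.84 and 13.78 in sip2 gal83, which lay below all other arrays. It read 14.04, 14.02 and 13.97 in the triple strain, also below the reference. The falls were 0.43 ± 0.05 in sip2 gal83 (adjusted p = 1.88e-05), 0.26 ± 0.05 in the triple strain (adjusted p = 0.000430) and 0.20 ± 0.05 in sip1 gal83 (adjusted p = 0.0133). The last call was lost without reference replicate 3 or sip1 gal83 replicate 3 (adjusted p = 0.0690 and 0.0790). The call in gal83 alone was lost with median centring, at -0.05 (adjusted p = 0.477).

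Interaction terms asked whether a pair of deletions together differed from the sum of its single effects. The single deletion strains enter these terms, and they had calls at 39.4% to 41.2% of all genes. The median of all genes was 0.17 for SIP1 with SIP2, 0.145 for SIP1 with GAL83 and 0.13 for SIP2 with GAL83. Relative to it, CIT2 was at 0.21, 0.39 and 0.30 in the same order. On that scale ICL2 was at -0.71 for SIP1 with GAL83, and AGX1 at -0.44 for SIP2 with GAL83. For SIP1 with SIP2, CIT2 was the 1 member called (52.4% of all genes), at 0.38 ± 0.09 (adjusted p = 0.00141), and it was not called with median centring, at 0.17 (adjusted p = 0.134). For SIP1 with GAL83, CIT2 at 0.54 ± 0.09 and ICL2 at -0.57 ± 0.19 were the 2 called (51.3% of all genes), ICL2 not without gal83 replicate 3 (adjusted p = 0.0522). ICL1 was at 0.12 ± 0.64 there, and without the array labelled sip1 gal83 replicate 2 it was at -0.79 ± 0.20 and called (adjusted p = 0.00407). For SIP2 with GAL83, CIT2 at 0.43 ± 0.09 and AGX1 at -0.31 ± 0.07 were the 2 called (47.8% of all genes), and ICL1 at -1.13 ± 0.64 was not (adjusted p = 0.159). With the array left out, ICL1 at -1.13 ± 0.19 and MLS1 at -0.94 ± 0.33 were called as well (adjusted p = 0.000163 and 0.0279).

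The three-way term, which asks whether a pair's interaction changes with the other gene deleted, was called for 3 of the 6 genes (50.9% of all genes). The median of all genes was -0.21 there, and relative to it MLS1 was at -2.73, CIT2 at -0.58 and ICL2 at 0.87. MLS1 was at -2.94 ± 1.10 (adjusted p = 0.0340), or -1.89 ± 0.48 without the array labelled sip1 gal83 replicate 2, and its call was lost in 6 of 32 other settings. CIT2 was at -0.79 ± 0.12 (adjusted p = 4.73e-05), and ICL2 at 0.66 ± 0.26 (adjusted p = 0.0442) lost its call in 16 of them. The interaction of SIP1 and SIP2 within the strains that lack GAL83, added after the values were seen, was called for CIT2 at -0.41 ± 0.09 and IDP2 at -0.56 ± 0.16, 2 of 6 (15.7% of all genes). IDP2 was not called without gal83 replicate 1, sip2 gal83 replicate 3 or triple replicate 3 (adjusted p = 0.0515, 0.0520 and 0.0541), nor with these 4 strains fitted alone (adjusted p = 0.102). MLS1 was at -2.33 ± 0.78 (adjusted p = 0.0513), and without the array at -1.28 ± 0.35 (adjusted p = 0.0264).

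The likeness of patterns was described by Pearson's r over the 24 arrays, which share strains and the steps between them, so no p is given. ICL1 and MLS1 had r = 0.993 with each other, and IDP2 had 0.981 with ICL1 and 0.980 with MLS1. Over all genes, those nearest to ICL1 besides these were SFC1, the succinate-fumarate carrier of mitochondria (0.983), MDH2, cytosolic malate dehydrogenase (0.966), and RKI1, ribose-5-phosphate isomerase (0.961). Those nearest to MLS1 also included YAT2, a carnitine acetyltransferase (0.960), and ZTA1 (0.954). REG2, a regulator of the Glc7 phosphatase, stood at 0.959 with IDP2. The same values without the array labelled sip1 gal83 replicate 2 lay within 0.02 of these. AGX1 was less alike, with 0.805 to ICL1, and its nearest gene was IME1, the activator of meiosis (0.900). CIT2 had r = -0.423 with ICL1 and -0.702 with ICL2. The genes nearest to CIT2 were YMR187C (0.867), MRPL3, COQ2, FLX1 and CBP3, of which the last 4 encode mitochondrial proteins. ICL2 was nearest to CIT3, the mitochondrial 2-methylcitrate synthase (0.860), DCI1 (0.852) and the peroxisomal catalase CTA1 (0.787).

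**Figure D4:**
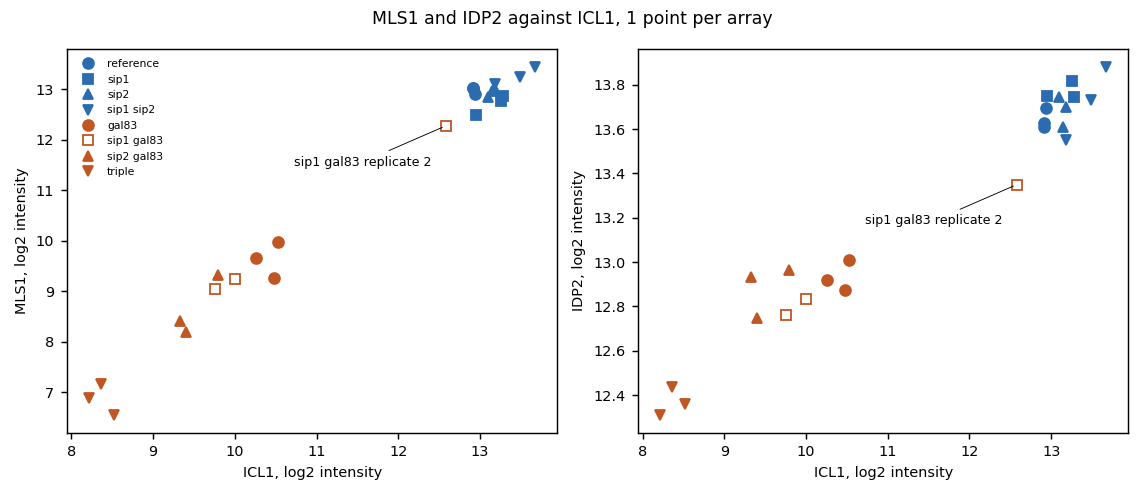
Log2 intensity of MLS1 (left, y axis) and IDP2 (right, y axis) against that of ICL1 (x axis), with 1 point per array, blue for strains that keep GAL83 and orange for those that lack it. The points run from the triple arrays at the lower left to the strains that keep GAL83 at the upper right, and the array labelled sip1 gal83 replicate 2 lies near the latter at 12.58 for ICL1.

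Related genes were taken from lists by role, and 55 of the 56 listed were measured. Of 12 enzymes of the citric acid cycle and its isoenzymes, 4 fell and 1 rose in the average GAL83 effect, a share near the 39.3% of all genes called in that comparison. The median was -0.01 for the list and 0.00 for all genes. MDH2, which makes the oxaloacetate that gluconeogenesis draws on, fell by 0.96 ± 0.07. The peroxisomal isocitrate dehydrogenase IDP3 fell by 0.33 ± 0.06, CIT3 fell by 0.28 ± 0.07 and aconitase ACO1 fell by 0.15 ± 0.03. The mitochondrial citrate synthase CIT1 was at 0.01 ± 0.02 and the mitochondrial malate dehydrogenase MDH1 at 0.04 ± 0.02, neither called.

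Of 8 genes that bring acetyl units, lactate or acetate to the cycle, 7 fell and 0 rose (39.3% of all genes called, list median -0.48). The acetate transporter ADY2 fell by 1.58 ± 0.19, the carnitine acetyltransferases YAT1 and YAT2 fell by 1.41 ± 0.09 and 1.31 ± 0.05, and the mitochondrial carnitine carrier CRC1 fell by 0.50 ± 0.07. Of 8 genes that carry the products onward, 4 fell and 1 rose (39.3% of all genes called, list median -0.19). Fructose-1,6-bisphosphatase FBP1 fell by 3.30 ± 0.23, phosphoenolpyruvate carboxykinase PCK1 fell by 2.84 ± 0.19, SFC1 fell by 1.40 ± 0.08 and the dicarboxylate carrier DIC1 fell by 0.26 ± 0.05.

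FBP1 and PCK1 of gluconeogenesis were not called in the step that lowered ICL1 and MLS1. From gal83 to triple, FBP1 was at 0.48 ± 0.46 (adjusted p = 0.438) and PCK1 at 0.20 ± 0.39 (adjusted p = 0.732), beside -2.05 in ICL1 and -2.77 in MLS1. The difference between genes was not tested. Without the 3 doubted arrays FBP1 was called higher, with the same value (adjusted p = 0.0440). In the same comparison YAT2 fell by 1.60 ± 0.10, IDP3 fell by 0.87 ± 0.13 and SFC1 fell by 0.66 ± 0.15, while YAT1 was at 0.06 ± 0.18 and MDH2 at -0.22 ± 0.14, neither called with all arrays.

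**Figure D5:**
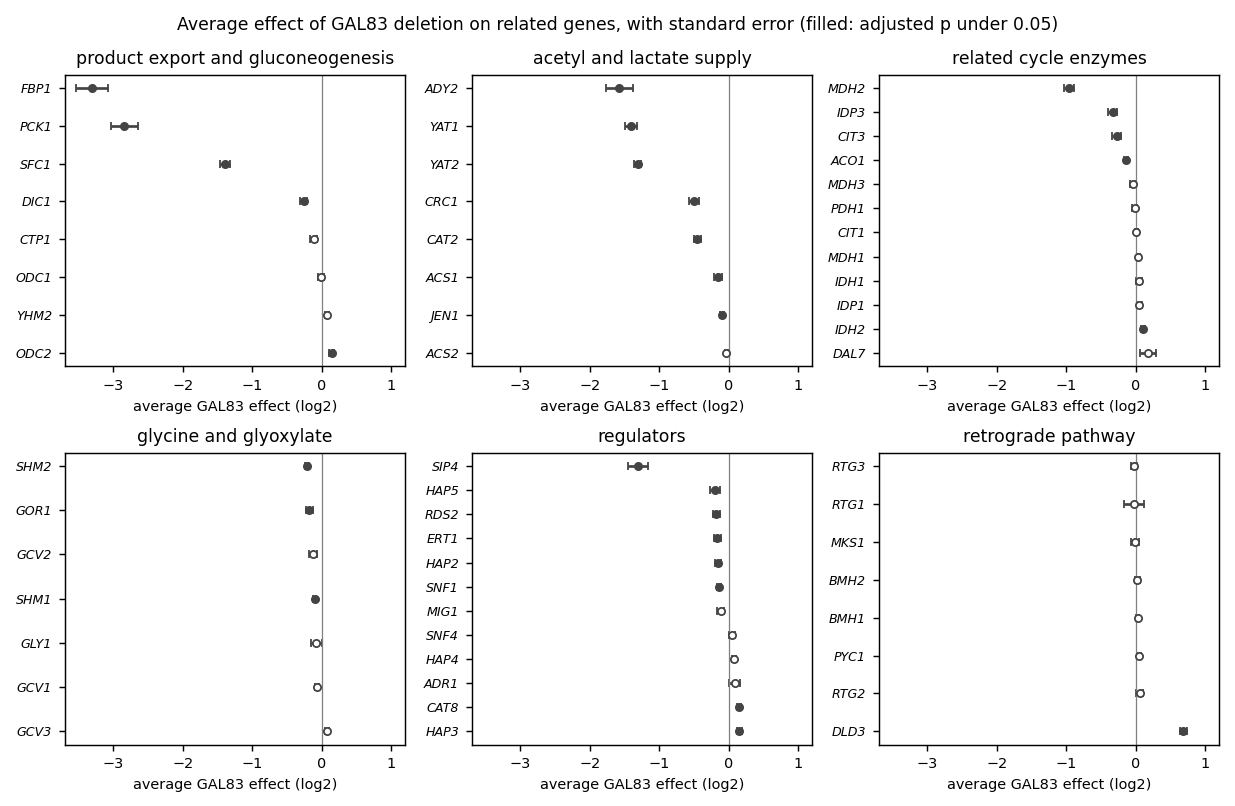
Average effect of GAL83 deletion over the 4 backgrounds (x axis, log2, with the standard error) for the related genes (y axis) in 6 lists by role, with filled points for an adjusted p under 0.05. FBP1 at -3.30 and PCK1 at -2.84 lie farthest to the left, and DLD3 at 0.68 farthest to the right.

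Of 7 genes that make or use glycine and glyoxylate, 3 fell and 0 rose (median -0.10), a share near the 39.3% of all genes called. The serine hydroxymethyltransferases SHM2 and SHM1 fell by 0.21 ± 0.03 and 0.10 ± 0.02, and the glyoxylate reductase GOR1 fell by 0.18 ± 0.05. Of 12 regulators of genes for growth without glucose, 6 fell and 2 rose (39.3% of all genes called, list median -0.13). SIP4, an activator of gluconeogenic genes whose own gene is a target of Cat8, fell by 1.31 ± 0.14. HAP5 fell by 0.20 ± 0.07, RDS2 fell by 0.18 ± 0.05 and ERT1 fell by 0.17 ± 0.05. CAT8, the activator upstream of SIP4, rose by 0.14 ± 0.03 (adjusted p = 0.000635). SIP4 did not follow the order of ICL1: it fell by 0.91 ± 0.28 in gal83 and by 1.92 ± 0.28 in sip2 gal83, and was at -0.41 ± 0.28 in the triple strain (adjusted p = 0.270).

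Of 8 genes of the retrograde pathway, 1 rose and 0 fell (39.3% of all genes called, list median 0.02). DLD3, a 2-hydroxyglutarate transhydrogenase gene and, like CIT2, a known target of the pathway, rose by 0.68 ± 0.05. The pathway's activators and sensor were not called, with RTG1 at -0.02 ± 0.14, RTG2 at 0.06 ± 0.05 and RTG3 at -0.03 ± 0.04. Against the reference, 3, 5 and 3 of the 8 genes were called lower in sip1, sip2 and gal83 (39.4%, 40.7% and 41.2% of all genes called), and 0 higher. List medians there were -0.21, -0.39 and -0.18. In sip2 gal83, 4 fell and 1 rose (37.3% of all genes, list median -0.19), and in triple 1 fell and 2 rose (38.4%). In sip1 gal83, 0 fell and 1 rose (10.9%), and in sip1 sip2, 0 fell and 0 rose (0.257%). RTG1 was called lower than the reference in all 3 single deletions, at -2.04 in sip1, -1.80 in sip2 and -1.80 in gal83, and also at -1.05 in sip2 gal83 and -0.86 in triple, each ± 0.28. It was not called lower in sip1 sip2 or in sip1 gal83. DLD3 stood above the reference by 0.82 ± 0.10 in sip1 gal83, the strain where CIT2 was also highest, by 0.75 ± 0.10 in the triple strain and by 0.57 ± 0.10 in sip2 gal83, and was at 0.25 ± 0.10 in gal83 (adjusted p = 0.0547).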

How the data were processed

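The authors deposited 1 table of log2 intensities per probe set, for which the submitters' processing notes name RMA and the affy package without versions. Which arrays were normalized together is not stated, and the sip2 gal83 arrays have a lower floor than the others. Scanner files were not used here, and the number of arrays limits the precision. Of 5716 probe sets, 5498 name 1 gene, 0 name several and 218 name none. Keeping the probe set with the highest mean left 5449 genes, with no filter on low values. All 24 value columns were used, so 0 went unused.

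Groups and replicate numbers came from the sample titles. The model, with 1 mean for each strain, was fitted in limma 3.58.1 (R 4.3.3) with lmFit, contrasts.fit and eBayes, which left 16 residual degrees of freedom. Tests were two-sided, and the threshold was an adjusted p of 0.05 (Benjamini-Hochberg, over all genes within a comparison). An average effect is the mean of the 4 strains that lack a gene minus the mean of the 4 that keep it. There were 23 comparisons, and 2 more were added after the values were seen. The members and lists were chosen with earlier results of these data known. All 6 members were named, with up to 4 called genes per list by size of the average GAL83 effect, a fixed panel of CAT8, SIP4, PCK1, FBP1, RTG1, RTG2 and RTG3, and the genes most like each member. CIT1, MDH1 and the values of listed genes from gal83 to triple were chosen after they were seen. 1 listed gene is not reported here, and no promoter or protein sequences were used here.

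The alternatives were scaling by array medians or by quantiles, dropping the 25% of genes lowest on average, testing every probe set, a trended and robust eBayes, weighting arrays, a block for replicate number, fitting just the groups compared, and omitting each array singly. Omitting the 3 doubted arrays at once was chosen after their values were known. Same-numbered arrays of different strains deviated from their strain means with a median r of 0.0635, 0.0052 and 0.0348 for numbers 1, 2 and 3 (range -0.352 to 0.333), so the numbers were not taken as pairs. No arrays were identical (highest correlation 0.9987). Replicates are biological per the labels, which do not say more. The fit was tested on simulated data.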

Additional observations from a re-analysis of the deposited data

Results flagged for a closer look

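The change that 1 deletion made in a member differed with another deletion, by the test of the interaction, in the following cases. With SIP1 and SIP2, CIT2 was at 0.38. With SIP1 and GAL83, CIT2 was at 0.54 and ICL2 at -0.57. With SIP2 and GAL83, CIT2 was at 0.43 and AGX1 at -0.31. In the three-way term, MLS1 was at -2.94, CIT2 at -0.79 and ICL2 at 0.66. For SIP1 and SIP2 within the strains that lack GAL83, CIT2 was at -0.41 and IDP2 at -0.56. Members called were 1 of 6 with SIP1 and SIP2 (52.4% of all genes) and 2 of 6 with SIP1 and GAL83 (51.3%). They were 2 of 6 with SIP2 and GAL83 (47.8%) and 3 of 6 in the three-way term (50.9%). In none of these was the share of members above that of all genes. Within the strains that lack GAL83, 2 of 6 were called (15.7%). The medians of all genes in these terms ran from -0.21 to 0.17, and the values above are not relative to them. Leaving out 1 array lost the call in some fits for ICL2 in each of its terms, for MLS1 and for IDP2. The call of CIT2 with SIP1 and SIP2 was lost with median centring, at 0.17 (adjusted p = 0.134). Without the array labelled sip1 gal83 replicate 2, MLS1 was at -1.89 in the three-way term. No formal test for outlying arrays was run.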

How the results depend on the processing

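Over the alternatives, values of single members kept direction and side of the threshold in 2195 cases, lost the call in 91, gained it in 60 and changed sign in 52, of which 4 were called. The 4 were ICL1 from gal83 to sip1 gal83, at -0.54, and ICL1 in the SIP1 GAL83 interaction, at -0.79, each without sip1 gal83 replicate 2 and without the 3 doubted arrays (that array, sip1 sip2 replicate 3 and sip2 gal83 replicate 1). The cause of these turns was not tested.

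Without the 3 arrays, MLS1 was also at -0.49 and -0.21 in these 2 comparisons, IDP2 at -0.14 from gal83 to sip1 gal83, and at 0.0602 between sip2 gal83 and sip1 gal83. With median centring, CIT2 was at 0.101 in sip1 and 0.0279 in gal83, AGX1 at 0.0262 in sip1, MLS1 at 0.0890 and ICL2 at 0.0700 in sip2, AGX1 at -0.0179 in the SIP1 average, IDP2 at -0.0464 from gal83 to sip1 gal83, and ICL1 at -0.14 and -0.0811 in the SIP1 SIP2 and SIP1 GAL83 interactions. With quantile normalization, MLS1 was at 0.0017 in sip2, AGX1 at -0.0072 in sip1 sip2 and -0.0079 in the SIP1 average, and ICL1 at -0.0462 and -0.0852 in the same interactions. With array weights, ICL2 was at 0.0080 in sip2 and 0.0229 in the SIP2 average, CIT2 at -0.0123 in sip2 gal83, and IDP2 at 0.0015 from gal83 to sip2 gal83. None of these was called.

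Leaving out 1 array at a time gave, in sip1, -0.0308 to 0.0325 for CIT2 and -0.0504 to 0.0917 for ICL2, and for ICL2 -0.18 to 0.0196 in sip2, -0.11 to 0.13 in gal83 and -0.0692 to 1e-04 in the SIP2 average. In sip1 sip2 it gave -0.0018 to 0.16 for IDP2 and -0.0113 to 0.0434 for AGX1. In the SIP1 average it gave -0.28 to 0.0693 for ICL1 and -0.0069 to 0.0183 for AGX1. From gal83 to sip1 gal83 it gave -0.54 to 0.87 for ICL1, -0.49 to 1.12 for MLS1 and -0.14 to 0.16 for IDP2. For IDP2 it gave -0.0929 to 0.016 from gal83 to sip2 gal83 and -0.21 to 0.086 between sip2 gal83 and sip1 gal83. ICL1 ran from -0.0432 to 0.20 in the SIP1 SIP2 interaction. In the SIP1 GAL83 interaction, ICL1 ran from -0.79 to 0.63, MLS1 from -0.21 to 1.41 and IDP2 from -0.27 to 0.0277.

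The number of members called moved by over 1.5 times in 60 of 470 cases. With the compared groups alone it was 1 in sip1, 2 in sip2, 3 in sip1 gal83, 2 from sip1 gal83 to triple, 3 from sip1 to sip1 gal83, 0 between sip2 gal83 and sip1 gal83, 2 in the SIP1 SIP2 interaction and 1 in that without GAL83. With array weights it was 2 and 4 in the SIP1 and SIP2 averages, 5 from sip2 gal83 to triple, 5 in the three-way term and 6 in the SIP1 SIP2 interaction without GAL83. With median centring it was 2 in the SIP1 average, 0 in the SIP1 SIP2 interaction and 4 in that without GAL83. That last count was also 4 without the lowest genes, with trend and robust, and without the 3 arrays, and trend and robust gave 2 from gal83 to sip2 gal83. Without the 3 arrays it was 1 in sip1 sip2, 4 in each of the SIP1 and SIP2 averages, 3 from gal83 to sip2 gal83 and 4 in the SIP1 GAL83 interaction. Leaving out 1 array gave 0 to 1 in sip1, 1 to 4 and 0 to 3 in the SIP1 and SIP2 averages, 1 to 3 from sip2 gal83 to triple, 1 to 2 from gal83 to sip2 gal83, 2 to 4 between sip2 gal83 and sip1 gal83, 1 to 3 in the SIP1 GAL83 interaction, 1 to 4 in the three-way term and 1 to 4 in the SIP1 SIP2 interaction without GAL83.

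With the replicate number as a block, 1 of 25 counts changed: the SIP2 average had 1 member called, as ICL1 at -0.70 missed the threshold (adjusted p = 0.0519). Of 24 arrays, 10 deviated most like an array of their own number.

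Counts over all genes ranged with the settings from 5 to 160 in sip1 sip2 (14 as reported), 231 to 1594 in sip1 gal83 (594), 528 to 2632 in sip2 gal83 (2031), 1622 to 3392 in triple (2093), 1109 to 2170 and 557 to 1409 in the SIP1 and SIP2 averages (1363 and 731). They ranged from 1306 to 2658, 379 to 2248 and 232 to 2026 from sip1 sip2, sip1 gal83 and sip2 gal83 to triple (1748, 717 and 789), 707 to 2551 from sip2 to sip2 gal83 (2026), 223 to 2309 from gal83 to sip2 gal83 (1637), 4 to 1372 between sip2 gal83 and sip1 gal83 (683), 95 to 490 for gal83 against the other singles (204), and 567 to 2122 for the SIP1 SIP2 interaction without GAL83 (854).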
